A study of Mus musculus with 12 samples.

Results

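The enzymes described here make estrogens, interconvert them or remove them: Cyp19a1, Hsd17b1, Hsd17b4, Hsd17b11, Hsd17b12, Cyp1a1, Cyp1b1 and Sult1e1. They were measured in bone marrow cultures of female C57BL/6 mice aged 6 weeks. A gene was taken up where a probe set of the array, a group of short probes for 1 transcript, named that gene and no other in the platform's annotation. The probe set standing for each gene was chosen by its measured level, as the brightest over all 12 arrays, so the levels below are a description and carry no test. Of the 8 enzymes 7 were measured, among 18193 genes in all. No probe set named Cyp19a1 alone, and this enzyme is not analysed here.

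There were 4 groups of 3 arrays. The first held cells labelled c-kit+ stem cells from cultures given 17β-estradiol, the main circulating estrogen, at 1 nM for 1 week, and the second held the same fraction from untreated control cultures. The other groups held cells labelled CD44+ stromal cells from estradiol and from control cultures. The cultures were of whole marrow, so the hormone was given to the mixture before the fractions were taken. The labels do not say how the fractions were separated, nor that the 3 replicates came from separate mice or cultures. The p-values therefore measure only the spread between these arrays, which may be technical.

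In humans, ovary, placenta and fat are textbook sites of estrogen synthesis, where aromatase (Cyp19a1 in the mouse) turns androgens into estrogens. Hydroxysteroid dehydrogenases then set the balance between estradiol and the weaker estrogen estrone, cytochromes of family Cyp1 add a hydroxyl group to give catechol estrogens, and sulfation by Sult1e1 makes a form that does not bind the estrogen receptors. Several of these enzymes also work on fatty acids or foreign compounds, and Cyp1a1 and Cyp1b1 are classical targets of the aryl hydrocarbon receptor, a transcription factor that binds DNA together with its partner Arnt.

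Values are on the log2 scale, where a difference of 1 is a doubling of signal. Over all probe sets they ran from 2.47 to 14.81, and array medians lay between 4.75 and 4.84. Because the mice were female, probe sets of Y-linked genes show what a probe set can read without its target. Of the 6 Y-linked genes measured, Sry read 6.13 to 6.37 and the others 3.04 to 4.54, so this reading differs between probe sets.

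The labels were set against marker genes. Kit, which encodes the c-kit receptor, averaged 3.94 in c-kit+ cells from estradiol cultures and 3.97 in those from control cultures, against 3.93 and 4.01 in CD44+ cells from estradiol and control cultures. It therefore stood within the readings of the Y-linked probe sets in both fractions, and no difference between them was called (adjusted p = 0.938 in control and 0.995 in estradiol cultures, from the limma fit described with the comparisons). Cd44 lay between 11.76 and 12.46 on all 12 arrays. Most of 9 macrophage genes were bright in both fractions, with Csf1r, the receptor of macrophage colony-stimulating factor, at a mean of 13.99 to 14.07 in every group and Lyz2, lysozyme, at 14.07 to 14.28, while Cd163 averaged 3.83 to 4.12. The data thus go against the label of stem cells for the c-kit+ fraction. Csf1r and Lyz2 were bright in the CD44+ fraction too, so its label of stromal cells may not describe all of its cells. The fractions are called c-kit+ and CD44+ only as the labels name them. Among the arrays, c-kit+ control replicate 3 correlated least with the other arrays of its group (mean r over all genes 0.988, against 0.992 to 0.997 for the others).

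The 250 bases upstream of the start sites of Cyp1b1 and Cyp1a1 are shown because these enzymes share a known activator, the aryl hydrocarbon receptor, and differed here in how they varied over the arrays. The sequences are those of RefSeq on GRCm38.p6, read 5′ to 3′ on the gene's own strand and ending at the base before the start, at chr17:79715062-79715311 on the minus strand for Cyp1b1 and chr9:57697363-57697612 on the plus strand for Cyp1a1. Capitals mark the letters GCGTG, the core that the receptor and Arnt are known to bind, on either strand.
Cyp1b1: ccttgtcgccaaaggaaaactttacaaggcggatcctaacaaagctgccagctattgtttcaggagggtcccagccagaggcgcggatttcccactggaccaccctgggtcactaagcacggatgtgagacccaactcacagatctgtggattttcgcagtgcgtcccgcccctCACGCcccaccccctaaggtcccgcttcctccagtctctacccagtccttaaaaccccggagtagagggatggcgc
Cyp1a1: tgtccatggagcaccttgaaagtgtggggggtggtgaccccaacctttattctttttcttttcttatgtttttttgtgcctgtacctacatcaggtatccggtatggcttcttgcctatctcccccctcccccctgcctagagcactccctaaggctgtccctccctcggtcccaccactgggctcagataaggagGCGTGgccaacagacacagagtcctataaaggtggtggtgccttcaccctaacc
In the Cyp1b1 window the match lies on the opposite strand, from 76 to 72 bases before the start. In the Cyp1a1 window it lies on the gene's strand, from 54 to 50 bases before it. Of 32851 upstream windows of the same length 28.2% held these letters, so a match in both is a description and not a site. Of the 8 enzymes 6 had an entry in the promoter table. Hsd17b11 also held 1 match, and Hsd17b12, Sult1e1 and the 3 windows of Cyp19a1 held none. The longer form TNGCGTG and the full palindrome of the consensus estrogen response element were searched on both strands too. Neither was found in any window of these enzymes, and they stood in 4.1% and 0.0639% of all windows.

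The first question was how the enzymes compare between the cell fractions. Cyp1b1, which turns estradiol into catechol estrogens, was far lower in c-kit+ than in CD44+ cells, with or without estradiol in the culture. The other 6 measured enzymes did not pass the test in either comparison of the fractions. Each gene was tested with limma, which fitted 1 mean per group over all 12 arrays, and p-values were adjusted over the 18193 genes by the method of Benjamini and Hochberg. A gene was called where its adjusted p was under 0.05.

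Cyp1b1 read 5.70, 5.72 and 6.15 in c-kit+ cells from control cultures, against 9.42, 8.53 and 9.37 in CD44+ cells from control cultures. In cells from estradiol cultures it read 6.68, 5.31 and 6.56 in the c-kit+ fraction, against 10.03, 8.80 and 9.43 in the CD44+ fraction. All 6 c-kit+ arrays lay below all 6 CD44+ arrays, with a gap between 6.68 and 8.53 that held no array. In control cultures the difference was -3.25 (SE 0.37, adjusted p = 0.00066, limma), which is a 9.52-fold lower signal in c-kit+ cells with a 95% interval of 5.46 to 16.6-fold. In estradiol cultures it was -3.23 (SE 0.37, adjusted p = 0.000462, limma), or 9.41-fold lower with an interval of 5.40 to 16.4-fold. The control and estradiol comparisons share no array, though they share the estimate of the spread. By size, Cyp1b1 stood at place 5 among the 320 genes called lower in c-kit+ cells of control cultures, and at place 10 among the 424 called lower in those of estradiol cultures. Without control replicate 3 of both fractions, an alternative added after seeing the data, the difference in control cultures was -3.27 (adjusted p = 0.00381, limma). The c-kit+ readings overlap those of Sry, and how much background they hold was not tested, so the fold is known only within that limit.

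**Figure D1:**
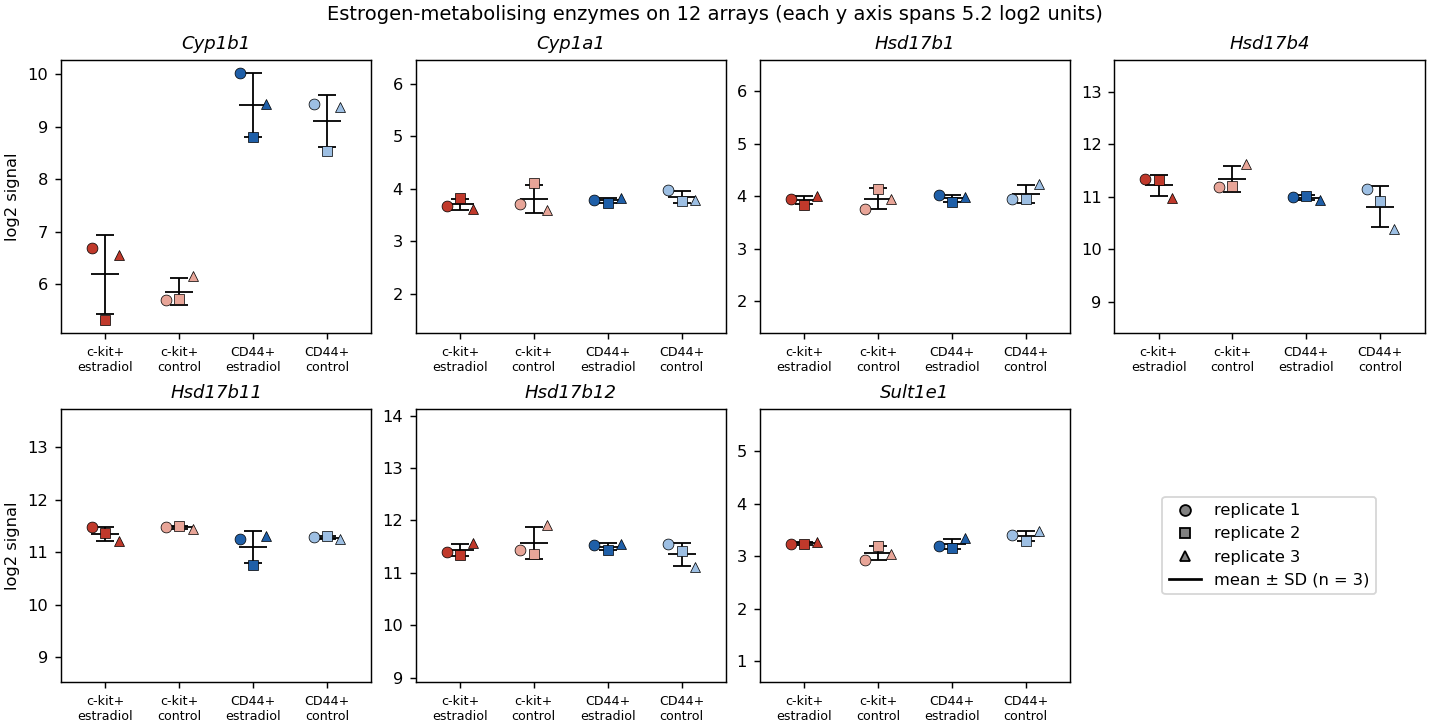
Log2 signal (y axis, spanning the same number of log2 units in each panel) of the 7 measured enzymes on 12 arrays, 3 per group, with points for replicates and bars for the mean ± SD (n = 3). Cyp1b1 is the enzyme whose fractions stand apart, from 5.31 to 6.68 in c-kit+ cells and from 8.53 to 10.03 in CD44+ cells.

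Other probe sets also name Cyp1b1, and they disagree. The one next in level, 1416613_at, read 3.37, 3.62 and 3.91 in c-kit+ cells from control cultures, against 6.78, 5.29 and 5.98 in CD44+ cells from control cultures. In estradiol cultures it read 4.01, 3.68 and 3.89 in c-kit+ cells, against 7.24, 6.37 and 6.19 in CD44+ cells. It thus also separated the fractions without overlap, by -2.38 in control cultures (adjusted p = 0.0028, limma over every probe set naming 1 gene) and by -2.74 in estradiol cultures (adjusted p = 0.00084). Its c-kit+ readings lie within the span of the Y-linked probe sets, so these sizes are set against a level that may be background. The dimmest, 1432081_at, lay between 3.63 and 3.96 on all 12 arrays. Its differences between the fractions were 0.04 in control cultures (adjusted p = 0.904, limma) and -0.12 in estradiol cultures (adjusted p = 0.824). The call on Cyp1b1 thus rests on the 2 brighter probe sets, which correlated with each other over the arrays at Pearson's r of 0.759 within c-kit+ cells and 0.818 within CD44+ cells (n = 6 each, arrays that share a fraction).

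**Figure D2:**
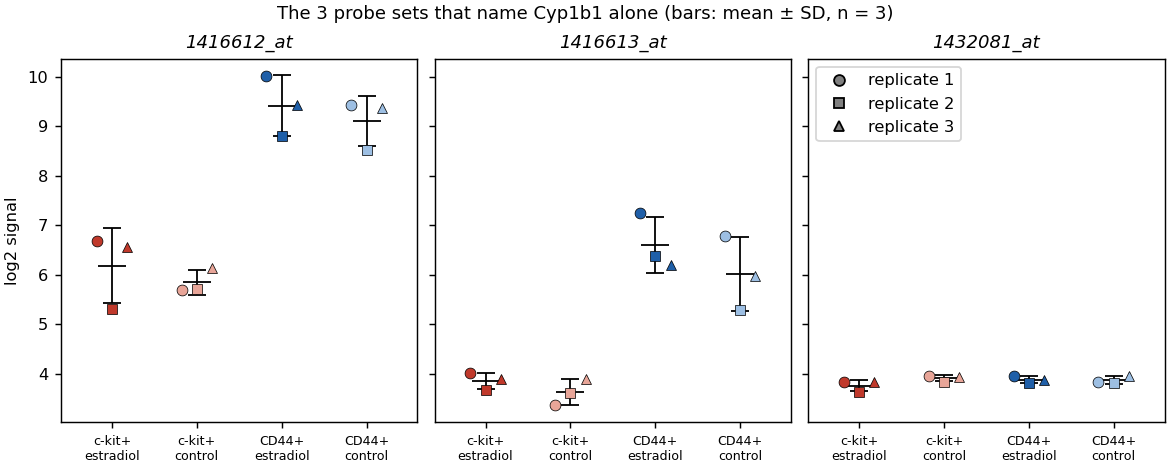
Log2 signal (y axis) of the 3 probe sets that name Cyp1b1 alone, by group, with points for replicates and bars for the mean ± SD (n = 3). The fractions stand apart on 1416612_at and 1416613_at, while 1432081_at stays between 3.63 and 3.96 on every array.

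The fractions also differed in marker genes. They differed too in Gapdh and beta-actin measures given below, for Gapdh without overlap in control cultures only. Of 12 stromal genes, among them collagens, Pdgfrb and Sparc, 8 were called lower in c-kit+ cells of control cultures and 9 in those of estradiol cultures, none was called higher, and their median differences were -2.21 and -2.28. The median over all genes was 0.01 in control and 0.03 in estradiol cultures. Summed over the 12 genes on the linear scale, the stromal signal had a log2 of 9.52 to 10.45 in c-kit+ and 12.39 to 13.47 in CD44+ cells of estradiol cultures, and of 9.62 to 10.18 in c-kit+ and 11.83 to 13.08 in CD44+ cells of control cultures. None of the 12 genes was called in either estradiol effect. Their median effect was 0.24 in c-kit+ cells (range -0.28 to 0.76), beside 0.02 over all genes. In CD44+ cells it was 0.36 (range -0.24 to 0.80), beside 0.01 over all genes. In bulk samples such as these, fewer cells of a type and less RNA per cell cannot be told apart.

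Of the 9 macrophage genes 1, Mrc1, was called higher in c-kit+ cells, by 0.66 in both comparisons (adjusted p = 0.0353 in control and 0.0316 in estradiol cultures, limma), and none lower. Among 10 progenitor and mast cell genes, Cd34 was called lower in c-kit+ cells of estradiol cultures (-1.43, adjusted p = 0.0318, limma), and none was called in control cultures. No neutrophil gene of 8 and no endothelial gene of 6 was called between the fractions. Of 5 adipocyte genes Fabp4, a fatty acid binding protein also made by macrophages, was called higher in c-kit+ cells of control cultures (1.17, adjusted p = 0.0219, limma).

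The Gapdh measure, taken from control probe sets, was the signal of the 3′ end minus that of the 5′ end, which grows as RNA is shortened. It was 6.17, 4.59 and 4.23 in c-kit+ cells of estradiol cultures, against 4.31, 3.32 and 3.50 in CD44+ cells of estradiol cultures. In control cultures it was 5.35, 5.23 and 4.62 in c-kit+ cells, against 4.14, 3.94 and 2.83 in CD44+ cells. On Gapdh the fractions overlapped in estradiol cultures and not in control cultures. The same measure on beta-actin overlapped in neither. It was 4.68, 2.59 and 2.34 in c-kit+ cells of estradiol cultures, against 2.14, 1.69 and 1.76 in CD44+ cells of estradiol cultures. In control cultures beta-actin gave 3.54, 3.98 and 2.48 in c-kit+ cells, against 2.11, 1.96 and 1.52 in CD44+ cells. Whether these measures reflect the RNA or its two-cycle labelling was not tested. With the Gapdh measure as a covariate, an alternative added after seeing the data, the Cyp1b1 difference was -3.55 in control cultures (adjusted p = 0.00636, limma) and -3.50 in estradiol cultures (adjusted p = 0.00368). The beta-actin measure was not fitted as a covariate. The part of the stromal genes in the Cyp1b1 difference was not tested.

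Read against all genes, 1 of 7 enzymes was called in control cultures, where 2.3% of all genes were called, and 1 of 7 in estradiol cultures, where 2.65% were. The median difference over the 7 enzymes was -0.04 in each. On the brightest probe sets, the groups of 3 arrays did not overlap for 4 enzymes in control cultures, a separation that 15.7% of all genes showed. In estradiol cultures Cyp1b1 alone showed it, beside 18.2% of all genes.

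The dehydrogenases Hsd17b4, Hsd17b11 and Hsd17b12 were bright on every array, from 10.38 to 11.92, with ranges over the arrays of 1.25, 0.75 and 0.80. Hsd17b4 is a peroxisomal enzyme that oxidises estradiol to estrone and also serves the breakdown of fatty acids. It read 11.19, 11.21 and 11.63 in c-kit+ cells of control cultures, against 11.14, 10.91 and 10.38 in CD44+ cells of control cultures. The groups did not overlap, and the difference was 0.53 (95% interval 0.14 to 0.93, adjusted p = 0.189, limma), which did not pass. The highest of these values was that of c-kit+ control replicate 3 and the lowest that of CD44+ control replicate 3, and without both the difference was 0.17 (adjusted p = 0.776, limma), an alternative added after seeing the data. Without CD44+ control replicate 3 alone it was 0.32, and with the Gapdh measure as a covariate 0.30. In estradiol cultures Hsd17b4 read 11.35, 11.33 and 10.98 in c-kit+ cells, against 11.01, 11.02 and 10.94 in CD44+ cells, groups that overlap, with a difference of 0.23 (adjusted p = 0.828, limma). Its other probe set gave 0.43 in control and 0.35 in estradiol cultures, without overlap of the groups in either. Neither passed (adjusted p = 0.209 and 0.448, limma over every probe set naming 1 gene). On that probe set c-kit+ control replicate 3 read 11.22, beside 11.21 and 11.17 for replicates 1 and 2. CD44+ control replicate 3 was again the lowest, at 10.43.

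Hsd17b11, which is found on lipid droplets and oxidises steroids at the same carbon, read 11.48, 11.50 and 11.44 in c-kit+ cells of control cultures, against 11.28, 11.31 and 11.26 in CD44+ cells of control cultures. These groups lie close together without overlap, 0.19 apart (adjusted p = 0.593, limma). In estradiol cultures it read 11.48, 11.38 and 11.21 in c-kit+ cells, against 11.25, 10.75 and 11.31 in CD44+ cells. CD44+ estradiol replicate 2 was the lowest of all 12 arrays, and the groups overlapped (difference 0.25, adjusted p = 0.645, limma). The 2 dimmer probe sets of Hsd17b11 did not follow the brightest one, with r over the 12 arrays of -0.01 and -0.50.

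Hsd17b12, a reductase of fatty acid elongation that can also reduce estrone in human cells, read 11.44, 11.36 and 11.92 in c-kit+ cells of control cultures, against 11.55, 11.41 and 11.12 in CD44+ cells of control cultures. Replicate 3 held the highest value of the c-kit+ group and the lowest of the CD44+ group here too. In estradiol cultures it read 11.41, 11.35 and 11.56 in c-kit+ cells, against 11.52, 11.43 and 11.55 in CD44+ cells. The groups overlapped in both cultures, with differences of 0.21 and -0.06.

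Hsd17b1, Cyp1a1 and Sult1e1 were dim in every sample, and none read above the 4.54 that Y-linked genes other than Sry reached. Hsd17b1, which reduces estrone to estradiol, lay between 3.75 and 4.24 on all 12 arrays, and Cyp1a1, a hydroxylase of estradiol and of foreign compounds, between 3.59 and 4.11. Their groups overlapped in all comparisons, and at such levels a low abundance of transcript cannot be told from none. Sult1e1, the estrogen sulfotransferase, read 2.94, 3.20 and 3.04 in c-kit+ cells of control cultures, against 3.40, 3.29 and 3.48 in CD44+ cells of control cultures. The groups did not overlap, and the difference of -0.33 did not pass (adjusted p = 0.141, limma). In estradiol cultures it read 3.23, 3.23 and 3.27 in c-kit+ cells, against 3.21, 3.16 and 3.35 in CD44+ cells, which overlap.

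The second question was whether 17β-estradiol, the substrate of several of these enzymes, changed their transcripts. None of the 7 measured enzymes was called in c-kit+ cells, where 0.181% of all genes were called, or in CD44+ cells, where 0.291% were. With limma, 33 genes in c-kit+ and 53 in CD44+ cells were called in all, and 814 and 978 had an unadjusted p under 0.05. No enzyme had an unadjusted p under 0.05 in either fraction on its brightest probe set. A dimmer probe set of Hsd17b11, 1421011_at, lay between 4.34 and 4.88 on all 12 arrays. Its estradiol effect was -0.26 in c-kit+ cells (unadjusted p = 0.0318, adjusted p = 0.951, limma over every probe set naming 1 gene). In CD44+ cells it was 0.20 (adjusted p = 0.954), and the groups overlapped in neither fraction.

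Cyp1b1 had an estradiol effect of 0.33 in c-kit+ cells (95% interval -0.47 to 1.13, adjusted p = 0.999, limma) and of 0.31 in CD44+ cells (-0.49 to 1.11, adjusted p = 0.954). Leaving out 1 array gave 0.080 to 0.76 in c-kit+ cells, the extremes being without estradiol replicates 1 and 2, and 0.0060 to 0.62 in CD44+ cells, again without estradiol replicates 1 and 2. From its values given above, the estradiol and control groups overlapped in both fractions. Its groups ran from CD44+ estradiol (9.42 ± 0.61, SD, n = 3) over CD44+ control (9.11 ± 0.50) and c-kit+ estradiol (6.18 ± 0.76) to c-kit+ control (5.86 ± 0.25), and the neighbours within a fraction did not differ beyond their spread. Arrays of the same replicate number differed, estradiol minus control, by 0.60, 0.27 and 0.06 in CD44+ cells and by 0.97, -0.41 and 0.41 in c-kit+ cells. The replicate numbers paired the CD44+ arrays by the check described under processing, and with the number as a block the CD44+ difference kept its size with an SE of 0.22 (adjusted p = 0.819, limma). Averaged over both fractions, the difference was 0.32 (adjusted p = 0.97, limma), and no enzyme was called there, against 0.951% of all genes. The Cyp1b1 probe set next in level, 1416613_at, had an estradiol effect of 0.23 in c-kit+ cells (95% interval -0.49 to 0.94). In CD44+ cells it had 0.59 (-0.13 to 1.30, adjusted p = 0.954, limma over every probe set naming 1 gene).

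For the 6 other enzymes the estradiol effect lay between -0.14 and 0.19 in c-kit+ cells and between -0.18 and 0.17 in CD44+ cells. Their 95% intervals, as folds, ran from 0.695 to 1.32 in c-kit+ cells and from 0.723 to 1.48 in CD44+ cells. The 3 estradiol values of Sult1e1 in c-kit+ cells lay above the 3 control values, by 0.19 on average (adjusted p = 0.999, limma), a separation that 7.81% of all genes showed. In CD44+ cells 12.7% of all genes showed such a separation, and no enzyme did on its brightest probe set.

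**Figure D3:**
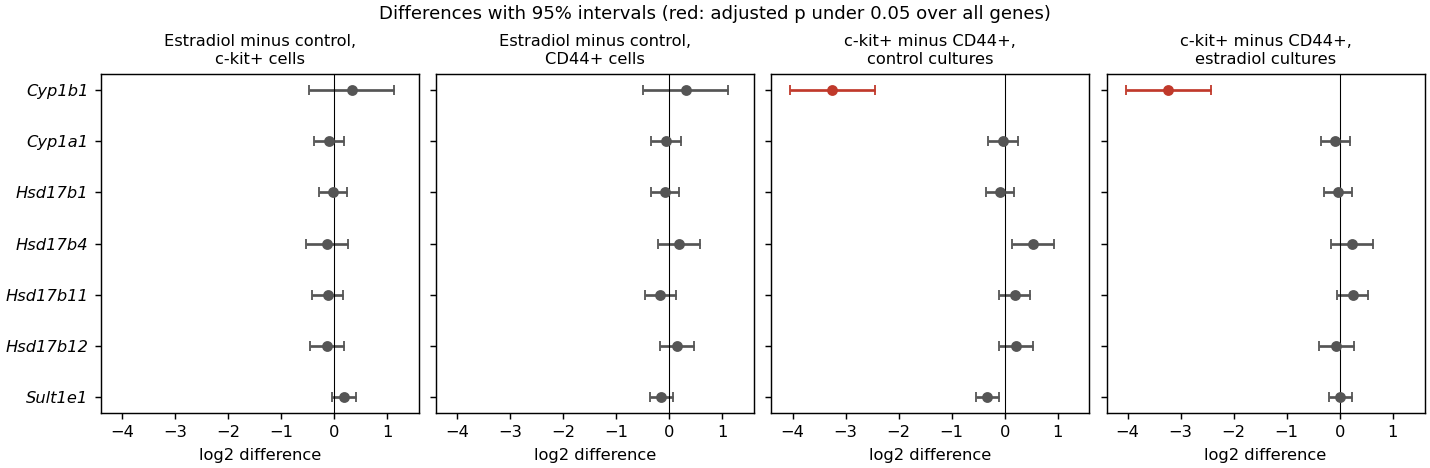
Log2 differences of the 7 measured enzymes (x axis) with 95% intervals from the fit, in 4 comparisons, with calls at an adjusted p under 0.05 in red. Cyp1b1 is called between the fractions, at -3.25 in control and -3.23 in estradiol cultures, and no interval for the other enzymes goes beyond -0.55 or 0.93 there.

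The effects in the 2 fractions were compared directly, as the estradiol effect in c-kit+ cells minus that in CD44+ cells. No gene was called by limma, so that 0% of all genes and 0 of 7 enzymes passed, while 296 genes had an unadjusted p under 0.05. The difference of effects for Cyp1b1 was 0.02 with a 95% interval of -1.12 to 1.15, which leaves room for a doubling either way. Sult1e1 was, on the brightest probe sets, the enzyme with the smallest p (difference 0.34, unadjusted p = 0.0364, adjusted p = 1, limma). The dim probe set 1421011_at of Hsd17b11 had -0.47 (unadjusted p = 0.00984, limma over every probe set naming 1 gene), which was not called either.

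Genes of neighbouring pathways were set beside the enzymes. Of 17 measured genes of steroid hormone synthesis (23 listed) and of 14 other 17β- and 3α-hydroxysteroid dehydrogenases (15 listed), none was called in any of the 6 comparisons. Their largest differences were 0.37 for Akr1c12, a reductase of steroids, in control cultures (adjusted p = 0.339, limma) and -0.34 for Hsd17b7, which serves cholesterol synthesis and reduces estrone (adjusted p = 0.362).

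Of 22 measured genes for conjugation and for clearance of catechol estrogens (27 listed), 2 were called, both between the fractions of estradiol cultures. Gstm2, a glutathione transferase, lay between 4.0 and 4.28 in c-kit+ cells, against 4.83, 4.67 and 5.04 in CD44+ cells, a difference of -0.73 (adjusted p = 0.00621, limma), and its c-kit+ readings lie within the span of the Y-linked probe sets. Papss2, which makes the sulfate donor used by sulfotransferases, read 6.71, 6.76 and 7.18 in c-kit+ cells, against 6.36, 6.38 and 6.24 in CD44+ cells, a difference of 0.56 (adjusted p = 0.0442). Neither pair of groups overlapped. Nqo1, a quinone reductase, had -0.51 (adjusted p = 0.277, limma) in these cultures and -0.61 (adjusted p = 0.124) in control cultures. The list's median was 0.03 in estradiol cultures, beside 0.03 over all genes.

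Of 8 measured genes of the aryl hydrocarbon receptor pathway (11 listed), Ahr, the receptor itself, was called. It read 6.85, 6.92 and 7.10 in c-kit+ cells of estradiol cultures, against 7.63, 7.57 and 7.45 in CD44+ cells of estradiol cultures. The difference was -0.59 (adjusted p = 0.0172, limma), with no overlap. In control cultures it read 7.02, 7.23 and 7.09 in c-kit+ cells, against 7.43, 7.73 and 7.34 in CD44+ cells, groups that again did not overlap, with a difference of -0.39 that did not pass (adjusted p = 0.147). Arnt lay between 7.99 and 8.29 on all arrays, and its difference between the fractions was 0.06 in control cultures and -0.01 in estradiol cultures. Ahrr, the receptor's repressor, was at -0.23 and -0.15 in these comparisons, and neither passed. Tiparp, a target of the receptor, had an estradiol effect of 0.55 in c-kit+ cells (adjusted p = 0.566, limma) and 0.37 in CD44+ cells (adjusted p = 0.924).

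All 16 listed regulators of aromatase were measured, and Ptgs2 was called higher with estradiol in both fractions. Ptgs2 makes prostaglandins, of which prostaglandin E is known to raise aromatase in human fat stroma. It read 11.18, 11.53 and 11.60 in c-kit+ cells of estradiol cultures, against 9.83, 10.06 and 10.23 in c-kit+ cells of control cultures, a difference of 1.40 (adjusted p = 0.00269, limma). Nr4a1, a nuclear receptor, had 0.90 in c-kit+ (adjusted p = 0.299, limma) and 0.58 in CD44+ cells (adjusted p = 0.809). The estrogen receptors were not called in any comparison. Esr1 lay between 7.50 and 8.24 and Esr2 between 4.03 and 4.62 over the arrays. Nr2f1, a repressor of aromatase in human cells, was called lower in c-kit+ cells of estradiol cultures (-0.59, adjusted p = 0.0354, limma), with readings of 2.88 to 2.97 in c-kit+ and 3.32 to 3.83 in CD44+ cells, all as dim as Y-linked probe sets.

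**Figure D4:**
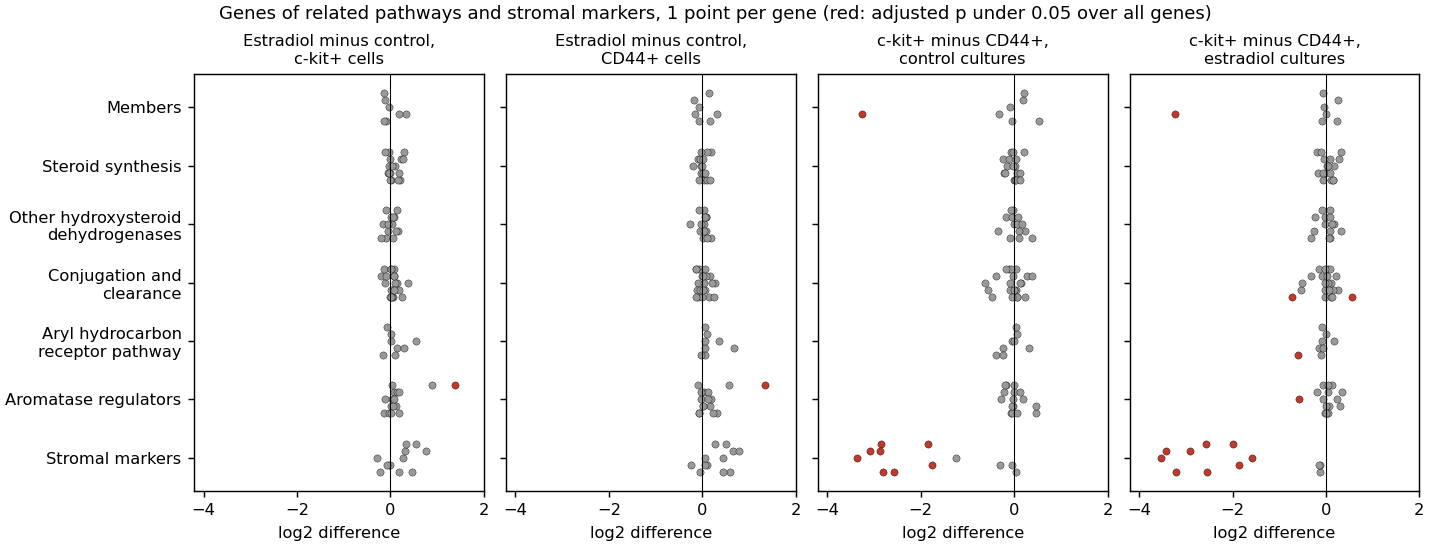
Log2 differences (x axis) of the 7 measured enzymes, 5 lists of related genes and 12 stromal markers, 1 point per gene, in 4 comparisons, with calls at an adjusted p under 0.05 in red. Of the 12 stromal markers 8 are called lower in c-kit+ cells of control cultures and 9 in those of estradiol cultures, beside Cyp1b1 at -3.25 and -3.23, and Ptgs2 is the called gene of the 2 estradiol comparisons.

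For enzymes whose SD over the 12 arrays was at least 0.3, the 5 genes most like them in pattern were found by Pearson's r over the 12 arrays. These genes were picked on the same values, so a pattern they share with the enzyme follows from the choice and is a description. Cyp1b1 (SD 1.77) was followed by Fgf7, a fibroblast growth factor (0.996), Fn1, the matrix protein fibronectin (0.995), F2r, the thrombin receptor (0.995), Pawr, a regulator of apoptosis (0.994), and Cald1, the actin-binding protein caldesmon (0.994). The arrays fall into the 2 fractions, so r was also taken within each. It was 0.877 to 0.984 within c-kit+ cells and 0.969 to 0.990 within CD44+ cells (n = 6 each). Fgf7 read 7.05, 5.36 and 6.64 in c-kit+ cells of estradiol cultures, against 10.05, 8.65 and 9.17 in CD44+ cells of estradiol cultures, with replicate 2 the lowest of each group, as it was for Cyp1b1. All 5 genes were called lower in c-kit+ cells in both cultures, with differences from -3.39 to -2.45. Being picked for their likeness to Cyp1b1, they add no separate result to its call.

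Hsd17b4 (SD 0.31) was followed by Anp32b, a histone chaperone (0.976), Pold3, a subunit of DNA polymerase delta (0.975), Uchl5, a proteasome-bound deubiquitinase (0.969), Tm9sf3 (0.967) and Atg3, an enzyme of autophagy (0.966). Within the fractions these genes had r of 0.903 to 0.984 in c-kit+ and 0.974 to 0.991 in CD44+ cells (n = 6 each). None of them was called between the fractions. Pold3 read 10.23, 10.11 and 10.83 in c-kit+ cells of control cultures, against 10.16, 10.02 and 9.34 in CD44+ cells of control cultures, so replicate 3 held the highest and the lowest value, as it did for Hsd17b4. The other 5 enzymes had SDs of 0.13 to 0.20 and were not matched.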

How the data were processed

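Per the labels, total RNA of 12 samples, 3 per group, was turned into biotin-labelled cRNA by a two-cycle Affymetrix kit. The deposited values are log2 signals that the authors made with RMA, per the submitters' processing notes, which give no version. They were used as deposited. Of 45101 probe sets, 64 were controls, 34945 named 1 gene, 932 several, and 9160 were unnamed here, by the platform's annotation. Each gene was its brightest single-gene probe set. limma 3.58.1 (R 4.3.3) fitted 1 mean per group over all 12 arrays with empirical Bayes moderation, and the pipeline was checked on simulated data. The number of arrays limits the precision. Figures were drawn with Python 3.11.15 and matplotlib 3.10.9.

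The enzymes, the gene lists and the alternatives were chosen with earlier results of these data known. Named are all enzymes, list genes that were called, up to 4 genes of smallest p per list and comparison, the 5 most-like genes of enzymes with an SD of at least 0.3, and Kit, Cd44, Esr1, Esr2, Ahr, Arnt, Ahrr and Tiparp. Other marker genes (Csf1r, Lyz2, Cd163) were named after their values were seen.

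Replicate numbers were taken to pair 2 groups where the deviations of same-numbered arrays from their group means, over all genes, correlated above 0.1 for all 3 numbers. This held for CD44+ estradiol and control arrays (0.303, 0.368 and 0.322) and for the fractions in estradiol cultures (0.447, 0.192 and 0.312). It failed for c-kit+ estradiol and control arrays (0.345, 0.092 and 0.253) and for the fractions in control cultures (0.175, 0.122 and -0.208). Alternatives were averaging the probe sets of a gene, testing each probe set, keeping the brighter genes (at or above the median), quantile normalization, median centring, array weights, robust moderation with a trend, fitting a comparison's arrays alone, blocking on the replicate number, a threshold of 0.1, omitting each array in turn and, added after the data were seen, the Gapdh measure as a covariate and leaving out both control replicates 3.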

Additional observations from a re-analysis of the deposited data

How the results depend on the processing

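The number of enzymes called was the same in all 142 recomputed counts over the 6 comparisons, 1 in each comparison of the fractions and 0 elsewhere. No count was taken on the dimmest probe sets. Some settings, such as a threshold of 0.1, keep the reported differences, so the counts are not separate checks. Of 1000 recomputed values, 2 changed side of the threshold, both for Cyp1b1 on its dimmest probe set between the fractions, where it had 0.044 in control cultures and -0.12 in estradiol cultures. With all its probe sets averaged, Cyp1b1 differed by -1.86 in control (adjusted p = 0.00109, limma) and -2.03 in estradiol cultures (adjusted p = 0.000614). Leaving out 1 array gave -3.54 to -3.09 in control cultures (adjusted p from 0.000348 to 0.00613) and -3.54 to -2.80 in estradiol cultures (adjusted p from 0.000189 to 0.00334). With the replicate block the differences were -3.25 and -3.23 with an SE of 0.22 (adjusted p = 7.68e-06 and 7.19e-06), and the block changed no call on an enzyme. The replicate numbers did not pair the fractions in control cultures by the check described under processing, so the smaller SE has no such basis there. The estradiol effect of Cyp1b1 in CD44+ cells was 0.74 with array weights (adjusted p = 0.119).

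Calls over all genes moved more. In c-kit+ cells estradiol called 33 genes, 10 to 45 without 1 array and 2 to 62 otherwise. In CD44+ cells it called 53, 22 to 97 without 1 array and 50 to 1405 otherwise. Averaged over the fractions it called 173, 104 to 275 and 167 to 523. Between the fractions 418 genes were called in control cultures, 221 to 456 and 196 to 1058, and 483 in estradiol cultures, 269 to 594 and 250 to 779. The difference of effects called 0 genes in every setting. The cause was not tested.

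Of the 1000 values 88 changed sign, 46 of them on leaving out 1 array, and none of these 88 was called under the alternative (lowest adjusted p 0.713). Except for Cyp1b1 on its dimmest probe set, none was called as reported either, and their reported sizes were at most 0.30 on the log2 scale. With the dimmest probe set of a gene these were, for estradiol in c-kit+ cells Cyp1b1 -0.15 and Hsd17b4 0.053, for estradiol in CD44+ cells Hsd17b11 0.11, for the difference of effects Cyp1b1 -0.16 and Hsd17b11 -0.20, for the fractions of control cultures Cyp1b1 0.044, for the fractions of estradiol cultures Hsd17b11 -0.15, and for the averaged estradiol effect Cyp1b1 -0.071 and Hsd17b11 0.013. With the probe sets of a gene averaged these were, for estradiol in CD44+ cells Hsd17b11 0.047, for the difference of effects Cyp1b1 -0.17 and Hsd17b11 -0.20, and for the fractions of estradiol cultures Hsd17b11 -0.039. With arrays centred on a common median these were, for the difference of effects Cyp1b1 -0.011, for the fractions of control cultures Cyp1a1 0.061 and Hsd17b1 0.0061, for the fractions of estradiol cultures Hsd17b1 0.033 and Hsd17b12 0.0087, and for the averaged estradiol effect Hsd17b12 -0.0065. With quantile normalization these were, for estradiol in CD44+ cells Hsd17b12 -0.038, for the fractions of estradiol cultures Sult1e1 -0.011, and for the averaged estradiol effect Hsd17b4 -0.074 and Hsd17b12 -0.11. With array weights these were, for estradiol in c-kit+ cells Hsd17b4 0.014, for estradiol in CD44+ cells Cyp1a1 0.0039 and Hsd17b1 0.0042, for the difference of effects Cyp1b1 -0.50 and Hsd17b1 -0.025, and for the fractions of control cultures Cyp1a1 0.075. Without both control replicates 3 these were, for estradiol in c-kit+ cells Hsd17b4 0.015 and Hsd17b12 0.039, for estradiol in CD44+ cells Hsd17b1 0.023 and Hsd17b4 -0.041, for the difference of effects Hsd17b1 -0.042, Hsd17b4 0.056 and Hsd17b12 0.018, for the fractions of control cultures Cyp1a1 0.038, Hsd17b1 0.0046 and Hsd17b12 -0.080, and for the averaged estradiol effect Hsd17b1 0.0015 and Hsd17b4 -0.013. With the Gapdh covariate these were, for the fractions of estradiol cultures Hsd17b1 0.031. Where leaving out 1 array turned a sign, the values without 1 array ran, for estradiol in c-kit+ cells Cyp1a1 -0.21 to 0.052, Hsd17b1 -0.12 to 0.076, Hsd17b12 -0.24 to 0.039 and Hsd17b4 -0.21 to 0.015, for estradiol in CD44+ cells Cyp1a1 -0.10 to 0.0096, Hsd17b1 -0.13 to 0.023, Hsd17b11 -0.28 to 0.00064 and Hsd17b4 -0.041 to 0.34, for the difference of effects Cyp1a1 -0.15 to 0.11, Cyp1b1 -0.29 to 0.45, Hsd17b1 -0.045 to 0.15 and Hsd17b11 -0.12 to 0.16, for the fractions of control cultures Cyp1a1 -0.19 to 0.067 and Hsd17b1 -0.19 to 0.0077, for the fractions of estradiol cultures Hsd17b1 -0.075 to 0.0080 and Sult1e1 -0.032 to 0.064, and for the averaged estradiol effect Hsd17b1 -0.10 to 0.00030, Hsd17b12 -0.057 to 0.090, Hsd17b4 -0.085 to 0.11 and Sult1e1 -0.014 to 0.053. The direction of a value this small is therefore not settled. Probe sets near the lowest readings limit what can be said of Cyp1a1, Hsd17b1 and Sult1e1.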
